A study of Homo sapiens with 6 samples.

Results

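The RIG-I-like receptors, the helicases of the DDX60 family and the proteins that carry their signal were described in interferon-treated human tumor cells. The genes, 8 of the 62710 Ensembl gene IDs in the expression table, were chosen by name: RIGI (formerly DDX58), IFIH1, DHX58, MAVS, DDX60, DDX60L, TBK1 and IKBKE. The choice was made with earlier results of these data known. All 8 were matched by gene ID, and all 8 passed the filter on low values, a mean of at least 0.1 FPKM over the 6 libraries, RIGI only through its level in the IFNβ libraries. RNA was sequenced in 6 libraries of HT1080, an established human fibrosarcoma cell line. The 3 untreated libraries came from cells that received no agent, and the 3 IFNβ libraries came from cells given 20 ng/mL IFNβ for 24 h. No other agent or genetic change was named for either group. The labels name human IFNβ, as does the cell culture section of the methods for all cells but 4T1, whereas the sequencing section names mouse IFNβ. The methods say of in vitro work in general that biological replicates were independent, but neither they nor the labels tie the 3 libraries of a group to separate cultures. The p-values below measure the spread between these libraries, part of which may be technical.

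RIG-I-like receptors are helicases of the cytosol that bind viral or other unusual RNA. RIG-I (RIGI) and MDA5 (IFIH1) carry signaling domains that engage MAVS, an adaptor on the mitochondrial surface, and LGP2 (DHX58) lacks those domains and tunes the other receptors. MAVS leads to the kinases TBK1 and IKKε (IKBKE), which phosphorylate interferon regulatory factors and so switch on type I interferon genes. DDX60 and DDX60L are large helicase-like proteins with reported antiviral roles. Interferon-stimulated response elements (ISREs) are short motifs in the promoters of genes that respond to type I interferon, and many receptors of this pathway are known as interferon-stimulated genes.

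Sequence before the start site of 3 of the genes is shown because each holds more than 1 match to the ISRE core. The sequences were taken from RefSeq promoter windows (GRCh38.p14), which run from 250 bases before to 50 bases after the gene start and held an entry for 7 of the 8 genes, all but DHX58. The core was searched on both strands as GAAANNGAAA, and its matches are in capitals. The stretch of RIGI is shown beside them as a gene that rose with IFNβ and whose window held no match. Sequences read from 5′ to 3′ on the strand of the gene, and all 4 genes lie on the minus strand. The regions are chr2:162318685-162318854 for IFIH1, chr4:168318793-168318882 for DDX60, chr4:168480533-168480622 for DDX60L and chr9:32526327-32526446 for RIGI.
IFIH1: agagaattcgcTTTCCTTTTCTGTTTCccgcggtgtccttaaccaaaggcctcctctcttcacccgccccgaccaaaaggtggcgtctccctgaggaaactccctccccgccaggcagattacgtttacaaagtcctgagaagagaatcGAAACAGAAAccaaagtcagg
DDX60: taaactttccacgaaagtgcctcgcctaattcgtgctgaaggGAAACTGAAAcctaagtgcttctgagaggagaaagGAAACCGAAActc
DDX60L: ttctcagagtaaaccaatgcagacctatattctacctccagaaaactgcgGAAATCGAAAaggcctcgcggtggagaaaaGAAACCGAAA
RIGI: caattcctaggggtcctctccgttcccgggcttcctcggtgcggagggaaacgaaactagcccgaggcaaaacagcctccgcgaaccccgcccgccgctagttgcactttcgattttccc

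IFIH1 had 3 matches. They began 159, 153 and 21 bases before the RefSeq start, and the first 2 of them overlap each other on the reverse strand. DDX60 had 2 matches, beginning 88 and 53 bases before the start. DDX60L had 2 matches as well, beginning 80 and 50 bases before its start, so the paired cores of the neighboring genes lie at similar distances from the start. RIGI, MAVS, TBK1 and IKBKE had none in their windows. Over all 35116 windows of the same length, 3.57% held the core at least once and 0.259% held it at least 2 times. A second motif, the gamma-activated site TTCNNNGAA, matched once among the 7 windows, in DDX60 from 124 bases before the start, and was present in 7.66% of all windows. It overlapped neither ISRE core. A match is a description of letters and was not tested as a binding site, and no match says only that these letters are not in the window. RefSeq and GENCODE 29 place the starts of these genes differently, so the distances hold for RefSeq only. The stretch of DDX60L lies wholly inside the GENCODE 29 gene, chr4:168356735-168537786, whose start on the minus strand is its last base.

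The 6 libraries were of similar size, with 22848104 to 32915500 fragments as the scale of their values, of which the fragments recovered from the table covered 99.7% in each. They were derived from the deposited FPKM (fragments per kilobase of exon, scaled to a fragment total of the library). Of 10 markers of mesenchymal cells, 7 were at 1 FPKM or more. The 10 summed to 1603 to 1668 FPKM in untreated and 1562 to 1627 FPKM in IFNβ libraries. The highest were VIM, LGALS1, S100A6 and SPARC, at 399, 468, 364 and 267 FPKM untreated. COL1A1, COL1A2 and THY1 were under 1 FPKM in both groups, COL1A1 at 0.341 FPKM untreated and 0.706 FPKM with IFNβ. Leukocyte markers summed to at most 0.298 FPKM and endothelial markers to at most 0.441 FPKM. Of the 4 epithelial markers, EPCAM, CDH1 and KRT19 were near 0. The keratin KRT8 was at 33.8 FPKM untreated and 72.6 FPKM with IFNβ. Its part in the results below was not tested.

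IFNβ raised the RNA of all 3 receptors and of both DDX60 helicases, whereas the adaptor and the kinases were not called. Of the 8 genes, 5 were called higher, meaning a limma test with an adjusted p (Benjamini-Hochberg over all genes tested) under 0.05 and a log2 fold change of at least 1. Of all 20716 genes tested, 3.49% were called higher. None of the 8 was called lower, beside 0.739% of all genes tested. Without RIGI, whose untreated level is under that filter, 4 of the other 7 were called. By adjusted p alone, with no fold threshold, 6 of the 8 passed, all higher, beside 32.7% of all genes. The untreated and IFNβ libraries did not overlap for 6 of the 8, beside 46.6% of all genes tested. The median log2 fold change of the 8 genes was 3.43, and that of all genes tested was 0.00. In bulk RNA, a change in every cell and a change in a subset of cells cannot be told apart.

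**Figure D1:**
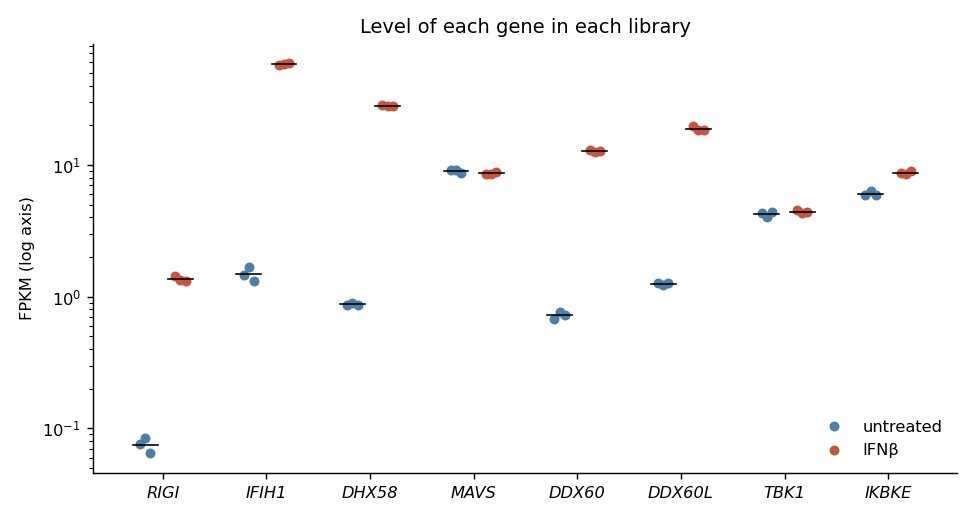
FPKM of each of the 8 genes (log axis) in the 3 untreated (blue) and 3 IFNβ libraries (red), with each library as a point and the group mean as a black line. RIGI, IFIH1, DHX58, DDX60 and DDX60L are separated by a factor of 15.0 to 39.1 between group means, and MAVS and TBK1 overlap between groups.

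IFIH1 encodes MDA5, the sensor of long duplex RNA, and showed the largest change of the 8. Its FPKM was 1.46, 1.68 and 1.31 in untreated libraries 1 to 3 and 57.1, 57.9 and 58.8 in IFNβ libraries 1 to 3. The lowest treated library lay far above the highest untreated one. The mean went from 1.48 ± 0.189 (S.D., n = 3) to 58.0 ± 0.823 FPKM (n = 3), a 39.1-fold difference. The log2 fold change on the scale of FPKM + 0.1, used for every gene below, was 5.20 (SE 0.082), with a limma adjusted p of 1.4e-07. It was the 32nd highest log2 fold change among the genes tested. The gene lies at chr2:162267079-162318703 on GRCh38.

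DHX58 encodes LGP2, the receptor without signaling domains. Untreated libraries 1 to 3 had 0.870, 0.899 and 0.866 FPKM, and IFNβ libraries 1 to 3 had 28.3, 28.1 and 28.0 FPKM. Values within each group were nearly the same, and the groups were far apart. The mean rose 32.0-fold, from 0.878 ± 0.0180 to 28.1 ± 0.125 FPKM (S.D., n = 3 each). The log2 fold change was 4.85 (SE 0.032, limma adjusted p = 3.1e-09), the 39th highest of all. DHX58 is at chr17:42101404-42112733.

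RIGI encodes RIG-I, the sensor of short RNA with a 5′ triphosphate, and it had the lowest level of the 8 in both groups. The FPKM was 0.0762, 0.0847 and 0.0646 in untreated libraries 1 to 3 and 1.43, 1.34 and 1.31 in IFNβ libraries 1 to 3. In recovered fragments this was 18, 26 and 22 untreated and 455, 347 and 393 with IFNβ. The groups did not overlap, although the untreated values rest on few fragments. The mean went from 0.0752 ± 0.0101 to 1.36 ± 0.0592 FPKM (S.D., n = 3 each), an 18.1-fold difference. The log2 fold change was 3.06 (SE 0.144, limma adjusted p = 2.5e-05). It is smaller than the fold of the means because the added 0.1 exceeds the untreated level. With 0.01 added it was 4.02 and with 1 added it was 1.14, and the gene was called higher under both. RIGI is at chr9:32455705-32526324.

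DDX60 and DDX60L lie side by side on chromosome 4, at chr4:168216293-168318807 and chr4:168356735-168537786, with 37927 bases between them. DDX60, a helicase reported to aid RNA sensing and viral RNA decay, had 0.679, 0.764 and 0.729 FPKM in untreated libraries 1 to 3 and 13.0, 12.5 and 12.7 FPKM in IFNβ libraries 1 to 3. Its mean was 0.724 ± 0.0427 FPKM untreated and 12.7 ± 0.215 FPKM with IFNβ (S.D., n = 3 each), a 17.6-fold rise, and its log2 fold change was 3.96 (SE 0.053, limma adjusted p = 6.5e-08). The treated and untreated libraries did not overlap. DDX60L, its paralog, had 1.27, 1.22 and 1.27 FPKM untreated and 19.6, 18.5 and 18.5 FPKM with IFNβ. Its groups were likewise apart. The mean was 1.26 ± 0.0293 FPKM untreated and 18.9 ± 0.687 FPKM with IFNβ (S.D., n = 3 each), a 15.0-fold rise, and its log2 fold change was 3.80 (SE 0.041, limma adjusted p = 2.6e-08). How fragments that match both paralogs were assigned is not given in the sources used here, so the split between them is uncertain.

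MAVS, the adaptor that both signaling receptors share, did not pass the test. Its FPKM was 9.07, 9.10 and 8.74 in untreated libraries 1 to 3 and 8.57, 8.60 and 8.78 in IFNβ libraries 1 to 3. The groups overlapped, since the highest treated library exceeded the lowest untreated one. The log2 fold change was -0.05 (SE 0.029, limma adjusted p = 0.23), with a 95% interval from -0.12 to 0.02, which does not reach the change of any receptor. MAVS is at chr20:3846799-3876123.

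The kinases differed from each other. TBK1, which is expressed in most tissues, had 4.28, 4.04 and 4.41 FPKM in untreated libraries 1 to 3 and 4.57, 4.29 and 4.35 FPKM in IFNβ libraries 1 to 3. These ranges overlapped, and the log2 fold change was 0.05 (SE 0.049, 95% interval -0.06 to 0.17, limma adjusted p = 0.47). IKBKE encodes IKKε, a kinase related to TBK1 that is known as inducible in many cells. It had 5.86, 6.29 and 5.92 FPKM untreated and 8.66, 8.50 and 9.03 FPKM with IFNβ, so all 3 treated libraries were above all 3 untreated ones. The mean was 1.45-fold higher, at 6.02 ± 0.228 and 8.73 ± 0.271 FPKM (S.D., n = 3 each). The log2 fold change of 0.53 (SE 0.040, 95% interval 0.43 to 0.63) passed the limma test with an adjusted p of 0.00018 and stayed under the fold threshold. TBK1 is at chr12:64451880-64502108 and IKBKE at chr1:206470476-206496889. In GENCODE 29, exons of TBK1 share 702 bases with the antisense gene AC135279.3 and exons of IKBKE share 156 bases with the antisense gene C1orf147. Whether the counting used strand is not given in the sources used here, so fragments in those stretches cannot be told apart. The antisense genes were at 0.150 and 0.131 FPKM untreated and at 0.146 and 0.267 FPKM with IFNβ.

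**Figure D2:**
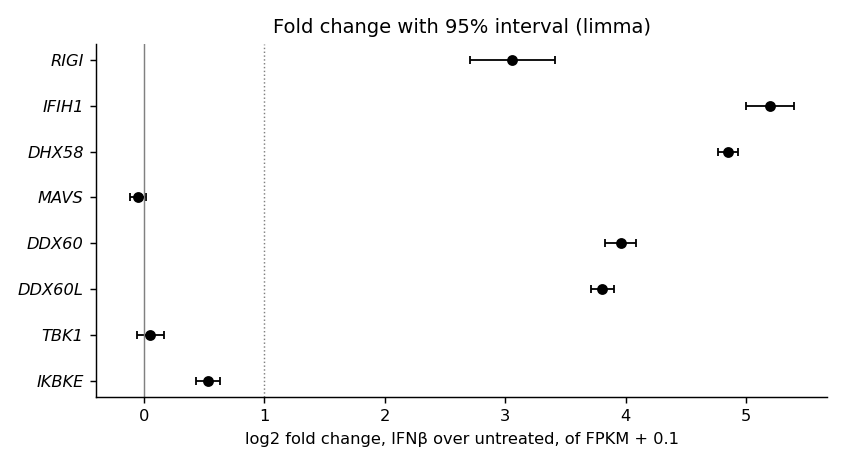
Log2 fold change of FPKM + 0.1, IFNβ over untreated (horizontal axis), for the 8 genes, with points for the limma estimate and bars for its 95% interval (n = 3 libraries a group). The solid line marks no change and the dotted line the fold threshold, which the intervals of the receptors and DDX60 helicases exceed and those of MAVS, TBK1 and IKBKE do not reach.

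The order of the levels differed between the groups. In untreated cells the mean FPKM ran from MAVS (8.97) through IKBKE (6.02), TBK1 (4.24), IFIH1 (1.48), DDX60L (1.26), DHX58 (0.878) and DDX60 (0.724) to RIGI (0.0752), and no neighbors in this order overlapped between libraries. The adaptor and the kinases were thus above every receptor. With IFNβ the order was IFIH1 (58.0), DHX58 (28.1), DDX60L (18.9), DDX60 (12.7), IKBKE (8.73), MAVS (8.65), TBK1 (4.40) and RIGI (1.36). IKBKE and MAVS overlapped there and were not distinguishable, and RIGI stayed below the adaptor and the kinases.

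Levels between genes depend on the exon length that FPKM is divided by, and the lengths implied by the deposited values were unusual for 3 of the 8. RIGI was divided by 10345 bases, where the exons of GENCODE 29 cover 4353. DDX60 was divided by 17337 bases against 6750, and TBK1 by 14716 against 4762. The lengths of the other 5 were equal or within a few percent, and over the 19784 genes tested with both lengths 4.6% had an implied length at least 2 times that of GENCODE 29. Recomputed with GENCODE 29 lengths, a choice made after seeing the data, TBK1 came to 13.1 ± 0.588 FPKM untreated and led the order there, above MAVS. DDX60 came to 1.86 ± 0.110 FPKM untreated and 32.7 ± 0.553 FPKM with IFNβ, which placed it above DDX60L in both groups (S.D., n = 3 each). RIGI came to 0.179 ± 0.0240 FPKM untreated and 3.24 ± 0.141 FPKM with IFNβ and remained the lowest of the 8 in both groups. IFIH1 remained the highest with IFNβ. Fold changes of a gene do not depend on this length, apart from the added 0.1. Whether the additional bases of the longer models hold fragments was not tested. Both lengths were applied to the same recovered fragments, so how fragments were assigned to each gene was not varied. Exons shared with other genes were sought in GENCODE 29 only.

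**Figure D3:**
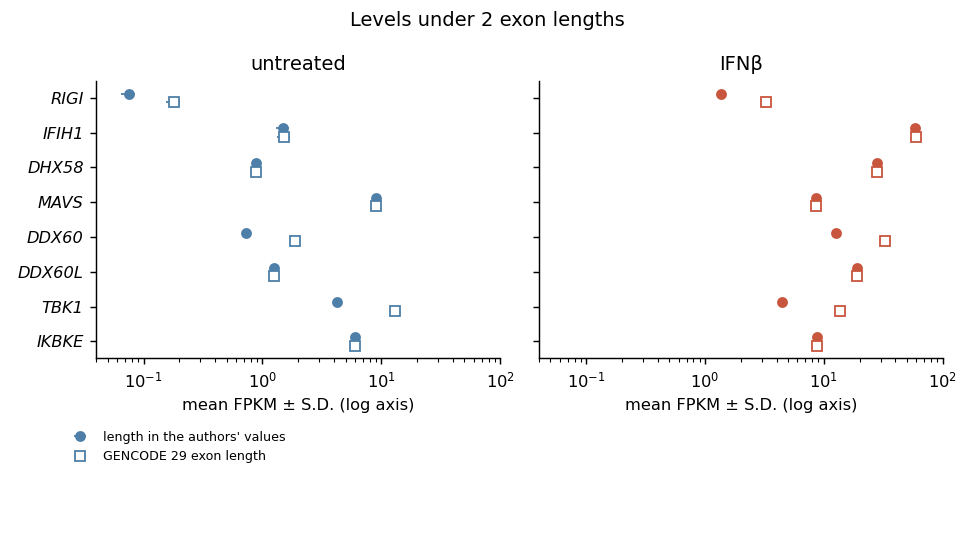
Mean FPKM ± S.D. (log axis, n = 3 libraries a group) of the 8 genes in untreated (left) and IFNβ libraries (right), with the exon length implied by the authors' values (filled circles) and the GENCODE 29 exon length (open squares). RIGI, DDX60 and TBK1 shift to the right and the other 5 genes hardly move, with RIGI lowest in both panels under either length.

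Ratios within a library compare how far the genes moved relative to each other. IFIH1 exceeded RIGI in FPKM by 19.1, 19.9 and 20.2 times in untreated libraries 1 to 3 and by 40.0, 43.1 and 44.7 times in IFNβ libraries 1 to 3. The ratio was higher in every treated library, by 1.11 on the log2 scale between group means. DHX58 exceeded RIGI by 11.4, 10.6 and 13.4 times untreated and by 19.8, 20.9 and 21.3 times with IFNβ, a log2 difference of 0.81. DDX60L stood to DDX60 at 1.88, 1.60 and 1.75 untreated and at 1.52, 1.47 and 1.46 with IFNβ, a log2 difference of -0.23. IKBKE stood to TBK1 at 1.37, 1.56 and 1.34 untreated and at 1.90, 1.98 and 2.07 with IFNβ, a log2 difference of 0.48. The groups did not overlap for any of the 4 ratios. Of all single genes tested, 46.6% did not overlap, and the share for ratios of other gene pairs was not computed. The count of ratios is therefore description only. Each ratio gave an exact two-sided permutation p of 0.10 (adjusted over the 4 ratios, 0.10). That is the smallest that 3 against 3 libraries allow, so none could pass 0.05. With GENCODE 29 lengths the mean ratio of IFIH1 to RIGI was 8.50 untreated and 18.3 with IFNβ, and that of DHX58 to RIGI was 4.92 and 8.65. That of DDX60L to DDX60 was 0.676 and 0.577, and that of IKBKE to TBK1 was 0.460 and 0.642. Under these lengths DDX60 was above DDX60L and TBK1 above IKBKE in both groups, so which gene of these pairs is higher depends on the length. With 0.1 added to both FPKM, the difference for IFIH1 to RIGI was 2.14 and that for DHX58 to RIGI 1.79 on the log2 scale, so their sizes depend on the added constant.

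The genes around the receptors were taken as a list of 57 by role, of which 51 were tested. Like the 8 genes, the list was chosen with earlier results of these data known. Of the 51 tested, 8 were called higher and 0 lower by limma. Limma-voom on recovered fragments also called 8, beside 896 higher and 208 lower of all 20716 genes tested. The limma calls are 15.7% called higher, beside 3.49% of all genes tested called higher and 0.739% called lower. Of these 8, 2, CXCL10 and CCL5, passed the filter on low values only through the IFNβ libraries. The median log2 fold change of the list was 0.08, close to that of all genes tested. By adjusted p alone, 21 were higher and 12 lower, 64.7% of the list beside 32.7% of all genes.

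Regulators of the sensors gave 2 called genes among 15 tested, beside 3.49% of all genes tested called higher. The lists by role are small, so their counts are given as description only. TRIM25, the ubiquitin ligase linked to RIG-I activation, rose 2.35-fold, from 15.8 ± 0.470 to 37.0 ± 0.795 FPKM (S.D., n = 3 each; limma adjusted p = 1.0e-06). ADAR, the enzyme that edits duplex RNA and so keeps self RNA from MDA5, rose 2.79-fold, from 31.8 ± 0.416 to 88.8 ± 0.326 FPKM (limma adjusted p = 3.5e-08). ZC3HAV1, an antiviral zinc finger protein with a log2 fold change of 0.95, lay just under the threshold and was the largest change among those of the pathway list not called. DAPK1 was below the filter on low values and was not tested.

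Among the partners of MAVS, 3 of 19 tested were called, beside 3.49% of all genes tested called higher. IFIT3, which is known to bridge MAVS and TBK1, rose 96.5-fold, from 2.66 ± 0.0729 to 257.0 ± 3.74 FPKM (S.D., n = 3 each; limma adjusted p = 5.2e-10), a larger fold than any of the 8 genes showed. TRIM14, an adaptor on mitochondria, rose 4.10-fold, from 12.6 ± 0.316 to 51.7 ± 0.418 FPKM (limma adjusted p = 3.9e-08). STING1, the adaptor of the cytosolic DNA sensor cGAS that also uses TBK1, rose 2.43-fold, from 9.71 ± 0.500 to 23.6 ± 0.803 FPKM (limma adjusted p = 6.5e-06). The other 16, TRAF3 and TRAF6 among them, had log2 fold changes between -0.29 and 0.70. TRIM31 was not tested.

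Of the 7 kinase adaptors and IKK subunits, OPTN was the only one called, beside 3.49% of all genes tested called higher. OPTN, optineurin, binds TBK1 and rose 3.21-fold, from 8.85 ± 0.311 to 28.4 ± 0.400 FPKM (S.D., n = 3 each; limma adjusted p = 3.1e-07). None of the 8 transcription factors was called by limma, beside 3.49% of all genes tested called higher and 0.739% lower. None was called by limma-voom, beside 896 higher and 208 lower of all 20716 genes tested. By limma adjusted p alone 4 passed, 2 higher and 2 lower, beside 32.7% of all genes tested. IRF3, the main substrate of TBK1 in this pathway, was among them, at 8.15 ± 0.115 and 12.3 ± 0.202 FPKM (log2 fold change 0.59, limma adjusted p = 1.8e-05). IRF7 was at 0.740 ± 0.148 and 0.749 ± 0.153 FPKM (log2 fold change 0.02, limma adjusted p = 0.97).

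Among the outputs of the pathway, the chemokines had fragments in every IFNβ library and the interferon genes were at or near 0. CXCL10 had 0 fragments in all 3 untreated libraries and 21.3, 20.8 and 21.8 FPKM in IFNβ libraries 1 to 3, at least 232-fold higher against a floor of 3 fragments in each untreated library. It was called, but with no spread among the untreated values its p rests on the added 0.1 and is not given. CCL5 had 0.0584, 0.135 and 0.0608 FPKM untreated and 0.585, 0.614 and 1.02 FPKM with IFNβ, from 2, 6 and 3 untreated fragments (limma adjusted p = 0.0017). Its call was lost with 1 added, where the log2 fold change was 0.67, and it was not tested with a mean of at least 1 FPKM required. IFNB1 and IFNL1 had at most 2 fragments in any library, IFNL2 and IFNL3 were at 0 throughout, and none of these 4 interferon genes was tested. A count of 0 allows up to 3 fragments in a library.

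**Figure D4:**
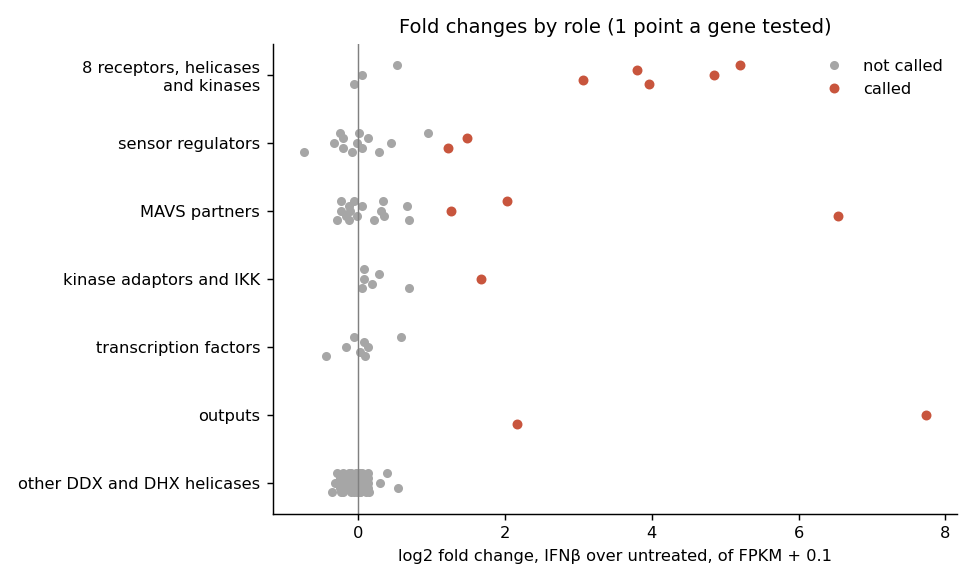
Log2 fold change of FPKM + 0.1, IFNβ over untreated (horizontal axis), for the 8 genes, the pathway list by role and the other DDX and DHX helicases, 1 point a gene tested, red where called. The called genes of the pathway list are 8 of 51, beside 3.49% of all genes tested called higher. None of the 49 other helicases is called. The point of CXCL10 at the far right depends on the added 0.1 because its untreated values are 0.

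The other RNA helicases of these families were set beside the 8 genes. The table holds 52 other protein-coding genes with a DDX or DHX symbol, counting SKIC2. Of these, 49 were tested, and 0 were called in either direction by limma or by limma-voom. Their log2 fold changes ran from -0.36 to 0.54 with a median of -0.01. By adjusted p alone 6 were higher and 14 lower, 40.8% of them beside 32.7% of all genes tested. With 3.49% of all genes called higher and 0.739% lower by limma, a count of 0 among 49 is near the background. Limma-voom called 896 higher and 208 lower of all 20716 genes tested. The largest was that of DDX47, at 0.421 ± 0.0883 and 0.650 ± 0.0240 FPKM (S.D., n = 3 each; limma adjusted p = 0.053). DHX15 had the lowest, at 45.9 ± 1.26 and 35.8 ± 0.644 FPKM (log2 fold change -0.36, limma adjusted p = 0.00016), and was picked out after its values were seen. DDX4, DDX25 and DDX53 were below the filter and were not tested.

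The genes with the nearest profiles were found by the Euclidean distance of log2(FPKM + 0.1) over the 6 libraries, which rests on level as well as on change. For IFIH1 they were SAMD9L (distance 0.479), HLA-B (1.02) and SAMHD1 (1.54). For DHX58 they were BATF2 (0.618), CMPK2 (0.678) and TRANK1 (0.796). RIGI lay nearest to ENSG00000291144 (0.614), which has no symbol in the table of names used, and to CEACAM1 (0.767). DDX60 lay nearest to C1R (0.669), AIM2 (0.688) and TLR3 (1.06), and DDX60L to SHFL (0.733), TRANK1 (0.815) and C1S (0.875). For none of these 5 was another of the 8 genes among the nearest 3, which were sought among all 20716 genes tested. That count is description only.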

How the data were processed

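RNA was sequenced in 6 HT1080 libraries, 3 untreated and 3 given IFNβ. The authors deposited 1 table of FPKM per Ensembl gene. The submitters' processing notes list fastp, HISAT2, StringTie and GRCh38, without versions or roles, and the annotation and strand setting are not given in the sources used here. FPKM are not counts, so the authors' DESeq2 test was replaced by limma 3.58.1 (R 4.3.3, eBayes with an intensity trend), fitted to log2(FPKM + 0.1) where a gene averaged 0.1 FPKM or more, with Benjamini-Hochberg adjustment over all genes tested. A call needed an adjusted p under 0.05 and a log2 fold change of 1 or more in either direction. The test was tested on simulated data.

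Low FPKM values are whole multiples of 1 fragment. From them, fragment counts and the exon length of each gene were recovered for 35302 of 35303 genes above 0 (whole within 1e-05), giving library scales of 22848104 to 32915500 fragments. These counts entered limma-voom as an alternative. Replicates of a group differed beyond sampling noise (chi-square per degree of freedom 1.78 to 3.39), so none was taken as a repeat. GENCODE 29 gave exon lengths and positions. Ratios between genes were compared with exact permutation tests.

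Named are the 8 genes, the called genes of the pathway list and of the other helicases, in each the largest change not called, genes not tested, and the 3 genes nearest in profile to each called member, of which 1 is not reported here. The 8 genes and the lists were chosen with earlier results of these data known. Alternatives were other added constants, filters, scalings, thresholds, tests, a replicate block and leaving out each library. Counts and intervals cover counting error and the spread of these libraries only.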

Additional observations from a re-analysis of the deposited data

How the results depend on the processing

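Of the 8 genes, 5 were called in all alternatives, each fit that left out 1 library included, except 2: with no fold threshold IKBKE was added, for 6, and with a mean of at least 1 FPKM required 4 were called. In every alternative fit that tested the gene, RIGI, IFIH1, DHX58, DDX60 and DDX60L were called higher. RIGI could not be fitted with a mean of at least 1 FPKM required, which its level does not reach. Over the other alternatives its log2 fold change ran from 1.14 to 4.17, against 4.57 to 5.30 for IFIH1, 3.95 to 4.99 for DHX58, 2.99 to 4.13 for DDX60 and 3.14 to 3.91 for DDX60L. MAVS ran from -0.07 to -0.04 (adjusted p 0.094 to 0.43), TBK1 from 0.02 to 0.08 (0.33 to 0.84) and IKBKE from 0.47 to 0.56 (5.2e-08 to 0.0031). Of all genes, 875 were called, 425 with a mean of at least 1 FPKM required, where fewer genes are tested, 304 with 1 added, and 6778 with no fold threshold. The pathway list had 7 calls with 1 added and 7 with a mean of at least 1 FPKM required, CCL5 being the one lost in both. Without a fold threshold 33 genes of the pathway list and 20 other helicases passed. With 0.1 added, the difference between groups in the log2 ratio of IFIH1 to RIGI went from 1.11 to 2.14. That of DHX58 to RIGI went from 0.81 to 1.79. A pairing of libraries by replicate number was not seen, though 3 libraries a group cannot exclude it. The deviations of same-numbered libraries correlated at 0.05, -0.02 and 0.12, and those of unlike-numbered libraries at -0.15 to 0.10. With the replicate number as a block 829 genes were called in all, 5 of the 8 and 8 of the pathway list. The low fragment counts of RIGI, 18 to 26 in untreated libraries, limit the precision of its fold change.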
